A study of Mus musculus with 23 samples.

Results

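RNA from CD41-negative hematopoietic stem cells (HSC) of mice carrying the Jak2 V617F allele was compared with RNA from CD41-negative HSC of wild-type (WT) mice. The comparison used 3 V617F and 3 WT libraries, 6 of the 23 libraries of the series, and covered the 14467 genes that passed a filter on low counts. The libraries were chosen by their labelled population and genotype, and no measured value entered that choice. The V617F mice were SclCre;V617F transgenic animals and the control mice were labelled wild type, with both on the C57BL/6 background. Animals of both genotypes received tamoxifen on 5 days, and their bone marrow was sorted 12 weeks later, so the tamoxifen itself was shared by the groups. SclCre is a tamoxifen-activated Cre recombinase driven by Scl (Tal1) regulatory sequence, which is active in stem and progenitor cells, so V617F is switched on in the adult and in that compartment; the share of recombined cells was not measured here. The wild-type label names no Cre, so Cre activity and V617F cannot be told apart in this comparison. V617F 1 and V617F 3 were labelled female and V617F 2 male, and WT 1, WT 3 and WT 4 were labelled female. Within the stem cell gate (lineage-negative, Kit+, Sca-1+, CD48-, CD150+), cells without surface CD41 were collected, and cDNA was amplified with SMART-Seq v4.

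JAK2 is the tyrosine kinase that carries signals from receptors for erythropoietin and other cytokines to STAT transcription factors. The V617F substitution lies in its pseudokinase domain and leaves the kinase active without ligand, and it is the most frequent driver of the myeloproliferative neoplasms polycythemia vera, essential thrombocythemia and primary myelofibrosis. CD41 is the integrin alpha IIb chain of platelets, and the stem cells that carry it on their surface are known for a lean towards the megakaryocyte lineage, which makes the CD41-negative fraction the less megakaryocyte-inclined part of the stem cell gate.

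The libraries held 28460156, 21492589 and 27535340 gene counts in V617F 1, 2 and 3 and 21484704, 17579314 and 19038436 in WT 1, 3 and 4, with 3 counts, taken as the detection floor, equal to 0.105 to 0.171 CPM, the count scaled to library size. The WT libraries stood apart from each other. Lars2 took 0.106% to 0.13% of the counts of the V617F libraries, against 1.38% of WT 1, 1.68% of WT 3 and 0.101% of WT 4. On the first principal component, which carried 54.4% of the variance, the V617F libraries lay at 32.3 to 38.1, WT 4 at -3.4, WT 1 at -41.6 and WT 3 at -59.3. Expression in WT 4 was nearer to the V617F mean than to the mean of WT 1 and WT 3 in 68.8% of all tested genes. RNA of 4 Y-linked genes (Ddx3y, Eif2s3y, Kdm5d and Uty) went against the female labels of the WT libraries: it summed to 1.26 and 0.545 CPM in V617F 1 and V617F 3 and to 415 CPM in the male V617F 2, against 105, 84.3 and 118 CPM in WT 1, 3 and 4, which is 20.3% to 28.4% of the level of V617F 2. Xist RNA in the same WT libraries was at 35.5% to 49.3% of its mean in the 2 V617F females. The labels do not say whether a library came from 1 animal or from pooled animals, so p-values measure the spread between these libraries, which may be technical in part.

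**Figure D1:**
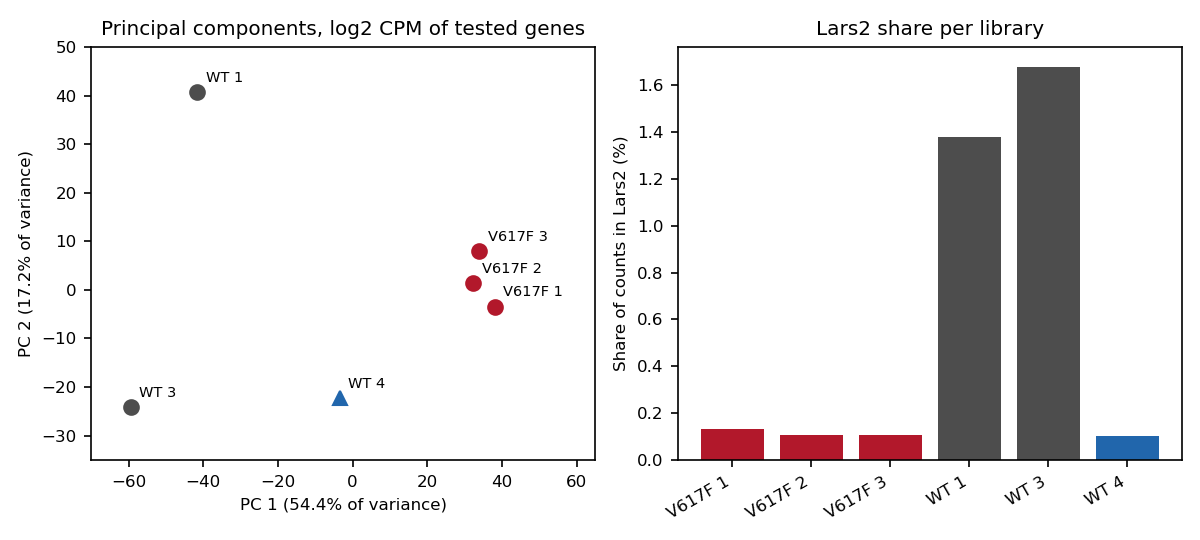
Left, the 6 CD41-negative libraries on the first 2 principal components of log2 CPM (percent of variance on each axis). Right, the share of each library's counts in Lars2 in percent; the V617F libraries hold 0.106% to 0.13%, WT 1 and WT 3 hold 1.38% and 1.68%, and WT 4 holds 0.101%.

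Jak2 itself was read at 219, 258 and 232 CPM in V617F and at 238, 185 and 228 CPM in WT. The values overlapped, with a log2 change of V617F over WT of 0.12 ± 0.13 (edgeR quasi-likelihood test, adjusted p = 0.498; the error of a log2 change is its standard error throughout); gene counts do not show which allele was transcribed. Tal1, whose regulatory sequence drives the Cre, averaged 93.1 ± 10.3 CPM in V617F and 97.3 ± 34.5 CPM in WT (SD, n = 3 each; adjusted p = 0.841). The genes of the sort gate were examined next. Kit, the stem cell factor receptor, had 1541, 1705 and 1833 CPM in V617F and 4000, 2049 and 1947 CPM in WT, where WT 1 stood alone at the top. Sca-1 (Ly6a) averaged 203 ± 46.3 CPM in V617F and 178 ± 36.1 CPM in WT (SD, n = 3 each), and CD150 (Slamf1) averaged 56.1 ± 2.76 CPM in V617F and 49.5 ± 9.14 CPM in WT. None of these 3 positive gate genes passed the test. Among the genes the gate excludes, Cd48 had 9.67, 6.2 and 8.68 CPM in V617F, against 2.08, 1.37 and 2.42 CPM in WT. The V617F libraries were all above the WT libraries for this gene, by 2.06 ± 0.3 log2 units (adjusted p = 0.00735). The CD41 gene Itga2b had 96.4, 113 and 136 CPM in V617F and 148, 232 and 181 CPM in WT, again without overlap (log2 change -0.70 ± 0.24, adjusted p = 0.0314), although it passed in only 2 of the 6 fits that left out 1 library. In CD41-positive HSC of the same series Itga2b averaged 697 CPM in V617F and 855 CPM in WT (3 and 2 libraries). Its RNA was thus lower in the CD41-negative fraction of both genotypes, but RNA does not show the surface protein by which the cells were sorted.

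In all, 1941 of the 14467 genes (13.4%) passed at an adjusted p under 0.05 (edgeR's quasi-likelihood test with Benjamini-Hochberg adjustment): 793 were higher in V617F (5.48%) and 1148 lower (7.94%). At least a 2-fold difference was present in 112 of the higher and 479 of the lower genes. The count depended on single libraries. It was 303, 403 and 282 without V617F 1, 2 and 3, and 620 and 348 without WT 1 and WT 3, but 6021 without WT 4. A fit of the 6 CD41-negative libraries alone called 269 genes. The account below therefore gives most room to the 177 genes that passed in the main fit, in each of the 6 fits without 1 library and in the 6-library fit, referred to as passing all 7 refits. Of these, 62 were higher in V617F (0.429% of tested genes) and 115 lower (0.795%), and 143 changed by at least 2-fold. In a contrast of V617F with WT 4 alone, in which that library was assumed to vary like the other groups of the fit, 86 of the 177 passed.

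Among genes with a mean of at least 10 CPM over the 6 libraries and no overlap between the groups, the largest increase was that of Nov (Ccn3), a secreted matricellular protein of the CCN family. It had 15.5, 34.4 and 17.5 CPM in V617F and 0.426, 0 and 0.252 CPM in WT. V617F was far above the detection floor in every library and WT close to it, with a log2 change of 6.58 ± 0.70 (adjusted p = 0.000956). Slc17a8, which encodes a vesicular glutamate transporter, had 54.5, 45.8 and 58.9 CPM in V617F and 6.97, 4.21 and 6.75 CPM in WT. The groups were far apart and tight within themselves (log2 change 3.15 ± 0.25, adjusted p = 8.18e-06). Cd53, a leukocyte tetraspanin, had 170, 104 and 92.4 CPM in V617F and 11.8, 13.7 and 16.9 CPM in WT. Its lowest V617F library was still well above its highest WT library (log2 change 3.11 ± 0.31, adjusted p = 0.000199). Tjp1, the tight-junction scaffold ZO-1, had 65.8, 97.2 and 89.3 CPM in V617F and 14.7, 12.6 and 8.51 CPM in WT, with no overlap. Plac8, a small cysteine-rich protein of myeloid and stem cells, had 214, 94.3 and 175 CPM in V617F and 17.3, 21.7 and 44.6 CPM in WT, where WT 4 was the highest of its group and still below every V617F library. The cell surface and matrix genes Ncam2 (neural cell adhesion molecule family), Podxl (the sialomucin podocalyxin) and Mmp2 (gelatinase A) rose by 2.57, 1.66 and 1.81 log2 units. Apob, the apolipoprotein of low-density lipoprotein, rose by 1.94, the small GTPase gene Gimap4 by 1.64 and Plscr2, of the phospholipid scramblase family, by 1.59. The rule also left out predicted or unnamed genes (Gm, Rik and LOC names), pseudogenes and genes on X and Y. All 12 genes with the largest increases by this rule, Socs2 included, passed all 7 refits.

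The largest decreases were of 2 kinds. Hba-a1, an adult alpha-globin gene, had 0.441, 0.045 and 0.282 CPM in V617F and 49.2, 20.6 and 20 CPM in WT. Its near-identical copy Hba-a2 had nearly the same values, because such reads cannot be assigned to 1 copy, so the pair is 1 measurement (log2 change -6.76 ± 0.65, adjusted p = 0.00144). Car1, a red cell carbonic anhydrase, had 1.94, 0.944 and 1.76 CPM in V617F and 18.4, 80.2 and 101 CPM in WT (log2 change -5.40 ± 0.82, adjusted p = 0.000635). In both genes every WT library exceeded every V617F library at least several-fold. Plk2, a polo-like kinase and p53 target, had 2.38, 3.51 and 2.75 CPM in V617F and 37.1, 50.9 and 42.8 CPM in WT, with all 3 WT libraries at a like level (log2 change -3.92 ± 0.20, adjusted p = 1.68e-05). Htra3, a secreted serine protease, averaged 3.02 ± 1.94 CPM in V617F and 23.8 ± 9.2 CPM in WT. Igf2bp2, an RNA-binding protein of fetal and adult stem cells, averaged 3.23 ± 0.727 CPM in V617F and 18.2 ± 1.74 CPM in WT, and Tns2, a focal adhesion tensin, 16.4 ± 6.26 CPM in V617F and 85.4 ± 20.5 CPM in WT (SD, n = 3 each). These genes passed all 7 refits.

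The second kind rested on WT 1 and WT 3. Mir6236 had 57.6, 52.9 and 52.6 CPM in V617F and 1012, 856 and 59.2 CPM in WT, so WT 4 was level with V617F. Lyl1, a basic helix-loop-helix factor of stem cells, had 28.4, 23.3 and 23.4 CPM in V617F and 145, 208 and 31.6 CPM in WT. The thyroid hormone receptor gene Thra had 29.6, 26.4 and 25 CPM in V617F and 148, 196 and 30.7 CPM in WT. Gatad1 and Tmem259 had the same shape, with V617F means of 44.1 and 26.4 CPM beside 50 and 34.8 CPM in WT 4, and WT 1 and WT 3 between 124 and 397 CPM. These 5 genes passed the main test at adjusted p between 0.0117 and 0.0153, and none passed all 7 refits. The same 2 libraries were the ones rich in Lars2; the part of that difference in these results was not tested.

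**Figure D2:**
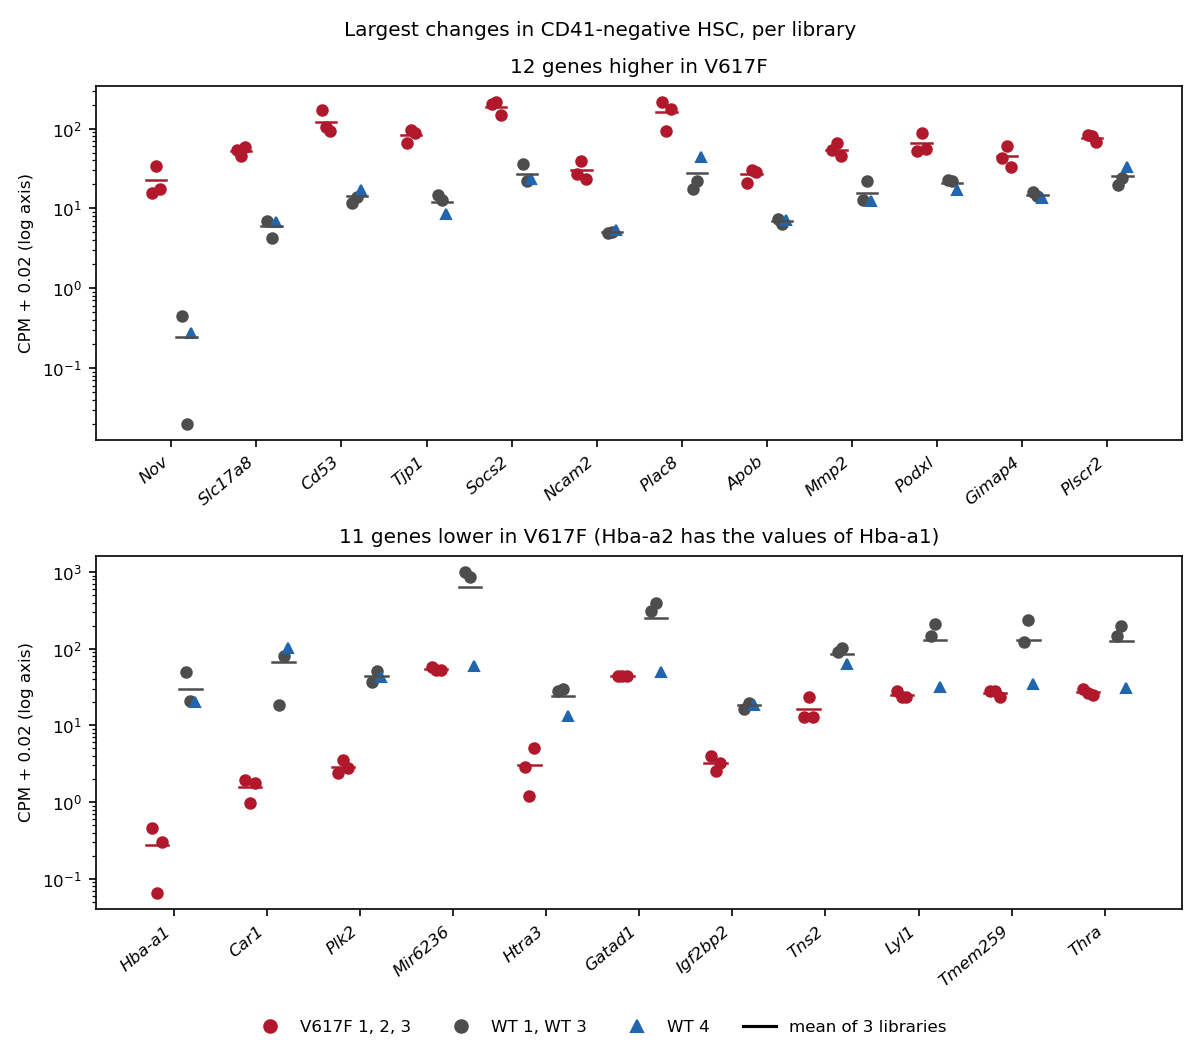
CPM (plus 0.02, log axis) in each library for the 12 largest increases and 11 of the 12 largest decreases by the text's rule. V617F is left of WT, with bars at the means of 3 libraries. WT 4 (triangle) lies with WT 1 and WT 3 for Plk2 and Igf2bp2, and with V617F for Mir6236, Gatad1, Lyl1, Tmem259 and Thra.

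Socs2 and Cish are feedback inhibitors that STAT5 switches on and that dampen cytokine receptor signals. Socs2 had 202, 215 and 149 CPM in V617F and 36.2, 21.8 and 23.3 CPM in WT. The 2 groups were far apart, by 2.80 ± 0.28 log2 units (adjusted p = 3.21e-05). Cish had 163, 248 and 163 CPM in V617F and 79.5, 111 and 76.9 CPM in WT, also without overlap but with a smaller distance (log2 change 1.10 ± 0.26, adjusted p = 0.0201; it passed in 4 of 6 omissions). Pim2, an X-linked survival kinase and STAT5 target, had 145, 157 and 158 CPM in V617F and 57.6, 71.3 and 74.7 CPM in WT (log2 change 1.17 ± 0.12, adjusted p = 0.00339). Its paralog Pim1 averaged 80.4 ± 16.9 CPM in V617F and 63.4 ± 9.13 CPM in WT (SD, n = 3 each) with overlapping groups and an adjusted p of 0.152. Bcl6, a transcriptional repressor that STAT5 represses in B cells, had 4.28, 2.97 and 3.5 CPM in V617F and 10.8, 15.9 and 9.37 CPM in WT (log2 change -1.74 ± 0.27, adjusted p = 0.00847). Gadd45g, a stress-response gene induced by cytokines, fell to 6.05 ± 0.673 CPM in V617F, against 12.9 ± 1.07 CPM in WT (SD, n = 3 each). Osm, which encodes the cytokine oncostatin M, rose by 0.92 log2 units but passed in 3 of 6 omissions only. Of 34 feedback and target genes of the pathway, 6 were higher, 5 lower and 23 did not pass. Over all tested genes 5.48% were higher and 7.94% lower. Over the omissions 3 to 9 of the 34 were higher and 2 to 10 lower. The median log2 change of the list, 0.02, was close to the -0.01 of all genes. Of the 14 feedback inhibitors in the list, Socs2 and Cish alone were called.

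The promoters of Cish, a feedback gene that rose, and Bcl6, a target that fell, are shown because they are the 2 of the 6 called members with an entry that hold the palindromic STAT motif TTCNNNGAA (capitals; searched on both strands in 250 bases before to 50 bases after the start; RefSeq sequence, build GRCm38.p6, 5′ to 3′ on the gene's strand). Bcl6 lies at chr16:23988803-23989102 on the minus strand with 1 match that begins 118 bases before the start, and Cish at chr9:107296409-107296708 on the plus strand with 2 matches, the second beginning 11 bases after the start.
Cish: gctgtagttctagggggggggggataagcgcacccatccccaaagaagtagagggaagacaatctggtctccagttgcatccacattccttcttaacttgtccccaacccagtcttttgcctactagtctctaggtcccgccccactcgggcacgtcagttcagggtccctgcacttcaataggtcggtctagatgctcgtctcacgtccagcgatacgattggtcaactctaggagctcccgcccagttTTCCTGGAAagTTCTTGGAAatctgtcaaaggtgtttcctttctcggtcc
Bcl6: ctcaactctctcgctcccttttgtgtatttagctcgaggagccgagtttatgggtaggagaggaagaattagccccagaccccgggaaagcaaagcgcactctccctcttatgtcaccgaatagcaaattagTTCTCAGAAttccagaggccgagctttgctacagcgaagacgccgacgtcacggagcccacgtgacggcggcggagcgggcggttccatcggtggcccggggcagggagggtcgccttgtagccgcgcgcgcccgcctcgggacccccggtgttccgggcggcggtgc
The motif was present in 9.55% of the 27025 promoters in the table, in 8.2% of those of tested genes and in 3 of the 21 list members with an entry.

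Among 11 JAK kinases and STAT factors none was higher and 3 were lower (5.48% and 7.94% of all tested genes), with 0 to 6 lower over the omissions and the most without WT 4. The lower genes include Jak3 and Stat2, with log2 changes of -0.73 and -0.44, and none of the 3 passed all 7 refits. Stat5a averaged 273 ± 9.15 CPM in V617F and 319 ± 32.4 CPM in WT, and Stat5b 256 ± 23.1 CPM in V617F and 287 ± 28.8 CPM in WT (SD, n = 3 each), with adjusted p of 0.154 and 0.307. Of 25 cytokine receptor genes tested, 2 were higher and 4 lower, with 0 to 4 higher and 0 to 8 lower over the omissions and the most without WT 4. Csf2rb, the common beta chain for GM-CSF and related cytokines, had 107, 86 and 97.8 CPM in V617F and 36.1, 57.2 and 27 CPM in WT (log2 change 1.27 ± 0.33, adjusted p = 0.0132). It lost the call in 1 of the 6 omissions, and Flt3 (log2 change 0.72) in 5 of them. The erythropoietin receptor gene Epor had 7.84, 8.45 and 11.5 CPM in V617F and 11.7, 27.5 and 23.4 CPM in WT, with WT 1 just above V617F 3 (log2 change -1.17 ± 0.41, adjusted p = 0.0226, 3 of 6 omissions). Csf2ra, the GM-CSF receptor alpha chain, was lower by 0.68 log2 units in the main fit, with 42 ± 2.4 CPM in V617F (SD, n = 3) beside 47 CPM in WT 4.

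Genes known for stem cell self-renewal and quiescence were lower where they changed. Of 38 tested, 12 were lower, none was higher, and the median log2 change was -0.36; 4 of the 12 passed all 7 refits. Cdkn1c, the cyclin-dependent kinase inhibitor p57 that holds stem cells in quiescence, had 29.5, 34.3 and 27.3 CPM in V617F and 78.9, 93.7 and 62.2 CPM in WT. Ndn (necdin), an imprinted growth suppressor of quiescent stem cells, had 41.3, 47.4 and 36.7 CPM in V617F and 111, 119 and 82 CPM in WT. Both fell, by 1.37 ± 0.20 and 1.31 ± 0.19 on the log2 scale (adjusted p = 0.00339 and 0.0032), and in both WT 4 was the lowest WT library yet above all V617F libraries. Mllt3, a cofactor that maintains stem cell programs, averaged 140 ± 13.8 CPM in V617F and 246 ± 31.5 CPM in WT (SD, n = 3 each; log2 change -0.81, adjusted p = 0.00391). Txnip, an inhibitor of thioredoxin, had 1100, 1054 and 1010 CPM in V617F and 2806, 1812 and 1859 CPM in WT. Its groups did not overlap (log2 change -1.03 ± 0.21, adjusted p = 0.0109), and the call was lost in 1 omission. The number of called members was 5 to 8 when any library except WT 4 was left out and 16 without WT 4, and 3 passed against WT 4 alone.

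Of 29 genes that other studies found to rise in aged stem cells, 8 were lower, 1 (Plscr2) was higher and 20 did not pass (median log2 change -0.39). The count lower was 4, 6 and 3 without V617F 1, 2 and 3, and 9, 4 and 8 without WT 1, WT 3 and WT 4. Runx1t1, a corepressor, had 3.33, 4.86 and 3.25 CPM in V617F and 14.6, 16.7 and 14.9 CPM in WT, 2 tight and separate groups (log2 change -2.02 ± 0.19, adjusted p = 0.00173). The X-linked LIM protein gene Fhl1 averaged 27.8 ± 5 CPM in V617F and 59 ± 10.8 CPM in WT, and the caveolar gene Cavin2 averaged 18.4 ± 2.27 CPM in V617F and 51 ± 19.1 CPM in WT (SD, n = 3 each); both passed all 7 refits. Vwf, the von Willebrand factor that marks platelet-biased stem cells, had 70.1, 90.2 and 85.3 CPM in V617F and 142, 193 and 115 CPM in WT. Every V617F library was below every WT library, but the call (log2 change -0.87 ± 0.24, adjusted p = 0.0201) held in 3 of 6 omissions.

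Erythroid genes had more lower members than any other of the 35 lists. Of 36 tested, 16 were lower in V617F and none higher, with a median log2 change of -0.69, and 7 of the 16 passed all 7 refits. Rhd, a Rhesus blood group protein, had 0.238, 0.135 and 0.247 CPM in V617F and 3.09, 11.8 and 16.2 CPM in WT. Ermap, an erythroid membrane protein, had 0.645, 0.225 and 0.424 CPM in V617F and 3.94, 23.7 and 21.6 CPM in WT. Add2, a subunit of the membrane skeleton protein adducin, had 0.238, 0.135 and 0.353 CPM in V617F and 2.34, 9.19 and 7.25 CPM in WT. In all 3, V617F was near the detection floor and WT 1 was the lowest WT library, and the log2 changes were -5.58, -5.19 and -4.63 (adjusted p = 0.00112 for each). Cited4, a CBP/p300-interacting factor, averaged 0.429 ± 0.216 CPM in V617F and 3.76 ± 1.27 CPM in WT (SD, n = 3 each). Called members numbered 7 to 17 over the omissions and 11 against WT 4 alone.

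The globins did not move together. Against the Hba values above, the adult beta-globin gene Hbb-bt had 72.3, 23 and 37.9 CPM in V617F and 34.9, 26.8 and 22.8 CPM in WT. Its groups overlapped, its log2 change was 0.66 (adjusted p = 0.23), and its copy Hbb-b2 had identical values. Across the whole erythroid list the summed level was 4583 to 4798 CPM in V617F. It was 8044, 4999 and 5891 CPM in WT 1, 3 and 4. The top of this sum was WT 1 alone, although WT 1 was the lowest WT library for Rhd, Ermap, Add2 and Car1. Fewer erythroid cells in a sorted sample and less erythroid RNA per cell cannot be told apart in bulk libraries, here or in the lists that follow.

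Rhd is shown because it is among the erythroid genes that fell most and its promoter window (chr4:134864286-134864585, plus strand, RefSeq, GRCm38.p6) holds 1 match to the GATA-factor motif AGATAA (capitals, searched on both strands), which begins 43 bases before the start.
Rhd: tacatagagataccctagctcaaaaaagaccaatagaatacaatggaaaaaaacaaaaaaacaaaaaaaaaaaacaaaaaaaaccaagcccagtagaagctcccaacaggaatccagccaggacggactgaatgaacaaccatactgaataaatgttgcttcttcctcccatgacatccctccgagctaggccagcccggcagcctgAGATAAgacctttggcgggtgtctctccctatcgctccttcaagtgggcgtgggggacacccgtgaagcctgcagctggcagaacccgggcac
The motif was found in 7 of 23 erythroid members with an entry, in 12.7% of all promoters in the table and in 8.23% of those of tested genes.

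Megakaryocyte and platelet genes had 15 lower and 3 higher members of 51 tested, with a median log2 change of -0.50, but a single gene per direction passed all 7 refits. The higher one was F2r, the thrombin receptor PAR1, at 355, 380 and 370 CPM in V617F and 127, 152 and 180 CPM in WT. Its V617F values were tight and all above the WT values (log2 change 1.27 ± 0.15, adjusted p = 0.00112). The lower one was Zfpm1 (FOG-1), the GATA1 cofactor, at 31.7, 25.4 and 19 CPM in V617F and 68.9, 146 and 59.6 CPM in WT (log2 change -1.85 ± 0.45, adjusted p = 0.00617). The platelet genes Gp9 (glycoprotein IX), P2rx1 (an ATP-gated channel) and Gng11 (a G protein subunit) were lower by 0.92, 0.46 and 0.60 log2 units in the main fit and lost the call in 4, 4 and 1 of the 6 omissions. The number of lower members was 2, 6 and 2 without V617F 1, 2 and 3, 12 and 4 without WT 1 and WT 3, and 18 without WT 4.

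Mitosis genes were the list with most higher members, 18 of 50 and none lower, with a median log2 change of 0.50. Cenpe, a kinetochore motor, had 45.5, 33.7 and 49.1 CPM in V617F and 20.1, 18.3 and 31.7 CPM in WT. Knl1, a kinetochore scaffold, had 40.1, 32.6 and 51.4 CPM in V617F and 17.9, 18.4 and 31.9 CPM in WT. In both, WT 4 came within a few CPM of the lowest V617F library, and the log2 changes were 0.87 ± 0.29 and 0.86 ± 0.33 (adjusted p = 0.0226 and 0.0283). Nusap1, Ect2, Ttk and Prc1, which act in the spindle, cytokinesis and the spindle checkpoint, rose by 0.77, 0.65, 0.88 and 0.82 log2 units in the main fit. None of the 18 passed all 7 refits: the count was 0, 3 and 0 without V617F 1, 2 and 3, 0 without WT 1, 0 without WT 3 and 39 without WT 4. The median log2 difference of the list from the V617F mean was 0.67 over WT 1, 0.58 over WT 3 and 0.22 over WT 4. The summed level was 2425 to 3202 CPM in V617F and 1753, 1854 and 2345 CPM in WT 1, 3 and 4.

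Knl1 is shown as a mitosis gene whose promoter window (chr2:119046869-119047168, plus strand, RefSeq, GRCm38.p6) holds the cell cycle element TTTGAA (capitals, searched on both strands), beginning 31 bases after the start.
Knl1: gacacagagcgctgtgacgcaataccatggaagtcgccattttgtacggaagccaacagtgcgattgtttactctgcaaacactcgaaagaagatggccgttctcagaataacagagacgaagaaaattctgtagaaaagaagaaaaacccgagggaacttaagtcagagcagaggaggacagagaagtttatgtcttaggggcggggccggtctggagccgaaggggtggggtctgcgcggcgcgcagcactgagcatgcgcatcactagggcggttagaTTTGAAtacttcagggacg
This element was found in 30 of the 42 mitosis members with an entry (71.4%), against 20.2% of all promoters in the table and 14.9% of those of tested genes.

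Of 41 DNA replication genes 3 were higher, a share near the 5.48% of all tested genes. Among them were Tyms (thymidylate synthase, log2 change 0.84) and Cdc45 (a helicase subunit, 0.47), and none passed all 7 refits. Over the omissions 0 to 14 replication genes were higher and 0 to 3 lower. Of 26 G1 cyclins, kinases and inhibitors, 3 were higher and 3 lower (5.48% and 7.94% of all tested genes), with 1 to 4 higher and 1 to 5 lower over the omissions. Cdkn2c, the kinase inhibitor p18, had 36.7, 32.3 and 34.9 CPM in V617F and 20.2, 13.7 and 18.2 CPM in WT, with both groups tight (log2 change 1.0 ± 0.17, adjusted p = 0.00327). It rose while Cdkn1c fell, and these were the 2 members that passed all 7 refits. Ccnd1, which encodes cyclin D1, had 15, 9.58 and 19.4 CPM in V617F and 37.5, 18.7 and 31.4 CPM in WT; its groups overlapped, and its call (adjusted p = 0.0421) held in 2 of 6 omissions.

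Of 21 cholesterol synthesis genes tested, 7 were called higher, none lower and 14 did not pass. All 21 had a positive log2 change, with a median of 0.33. Hmgcs1, the HMG-CoA synthase of the pathway, had 98.7, 117 and 108 CPM in V617F and 50.5, 46.9 and 56.9 CPM in WT. Sqle, squalene epoxidase, had 135, 131 and 130 CPM in V617F and 80.7, 65.2 and 91.2 CPM in WT. Both passed all 7 refits, with no overlap and log2 changes of 1.07 ± 0.11 and 0.74 ± 0.14 (adjusted p = 0.00144 and 0.00948). Idi1 (isopentenyl diphosphate isomerase), Cyp51, Msmo1 and Sc5d (sterol-modifying enzymes) rose by 0.96, 0.69, 1.23 and 0.53 log2 units. The median difference of the 21 genes was 0.42 over WT 1, 0.50 over WT 3 and 0.35 over WT 4. In the wider list of 37 cholesterol genes 10 were higher and 1 lower, with 4 to 15 higher over the omissions and 1 against WT 4 alone.

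Hmgcs1 is shown as the synthesis gene with the smallest p; its window (chr13:119690101-119690400, plus strand, RefSeq, GRCm38.p6) holds 1 match to the sterol regulatory element form TCACNCCAC (capitals, searched on both strands), which begins 137 bases before the start.
Hmgcs1: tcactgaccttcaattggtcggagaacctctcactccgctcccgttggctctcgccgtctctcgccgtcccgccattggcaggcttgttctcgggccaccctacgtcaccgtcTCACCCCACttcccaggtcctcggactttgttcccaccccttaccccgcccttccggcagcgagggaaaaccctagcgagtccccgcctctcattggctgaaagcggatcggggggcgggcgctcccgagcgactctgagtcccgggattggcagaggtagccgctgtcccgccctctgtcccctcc
The form occurred in 1.44% of all promoters in the table and in this 1 gene of the 27 cholesterol members with an entry.

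**Figure D3:**
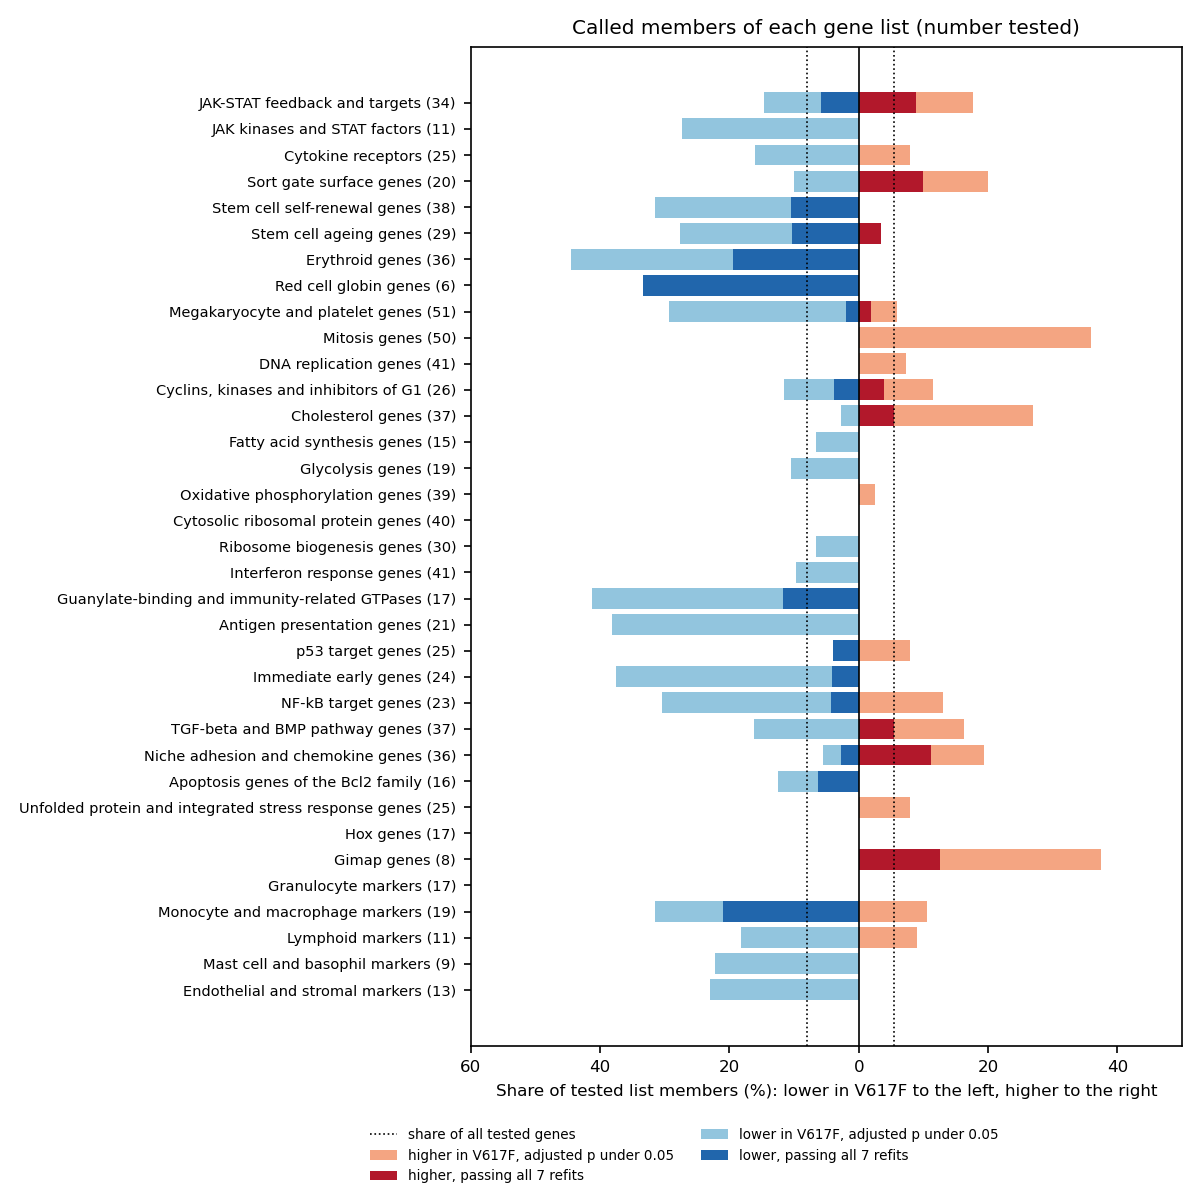
Share of the tested members of each of 35 gene lists called higher (right) or lower (left) in V617F at an adjusted p under 0.05, with those that passed all 7 refits in dark colour; dotted lines mark the shares of all tested genes, 5.48% higher and 7.94% lower. The mitosis bar has no dark part, and the erythroid bar has 7 of 16 genes in it.

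Guanylate-binding proteins are interferon-gamma-induced GTPases of cell-autonomous immunity. Of 17 such genes and related GTPases, 7 were lower and none higher, with a median log2 change of -0.28. Gbp9 had 19, 21.4 and 24.5 CPM in V617F and 60.7, 57.9 and 60.4 CPM in WT. Gbp4 had 23.7, 17.9 and 28.7 CPM in V617F and 59.1, 73.8 and 80.5 CPM in WT. These 2 genes were well separated, with log2 changes of -1.46 ± 0.11 and -1.60 ± 0.24 (adjusted p = 0.00339 and 0.00378), and passed all 7 refits. Gbp10, Gbp11, Gbp6 and Gbp8 were lower by 2.10, 2.0, 1.59 and 0.71 log2 units; these genes lie beside each other on chromosome 5 and are close paralogs, so reads may be split among them. Of 41 interferon response genes, 4 were lower and none higher, a share near that of all genes. Over the omissions 0 to 6 interferon genes were higher and 0 to 5 lower. The median log2 difference of these genes was 0.17 against WT 1, -0.24 against WT 3 and -0.31 against WT 4. Guanylate-binding members called higher numbered 0 to 3 over the omissions. The count of lower guanylate-binding members was 3 to 8 over the omissions and 5 against WT 4 alone.

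Antigen presentation genes had 8 lower and no higher members of 21, and 6 of the 8 belonged to the MHC class II pathway. Cd74, the class II invariant chain, had 242, 210 and 157 CPM in V617F and 385, 463 and 392 CPM in WT, without overlap (log2 change -1.02 ± 0.20, adjusted p = 0.0182). Ciita, the class II transactivator, averaged 11.8 ± 2.28 CPM in V617F and 21.6 ± 4.27 CPM in WT, and the class II chain genes H2-Aa and H2-Ab1 fell by 0.66 and 0.53 log2 units. Tapbp and Tap1, which load class I molecules, fell by 0.94 and 0.68 log2 units, with WT 4 nearest to V617F in both. None of the 8 passed all 7 refits: 1, 1 and 0 were called without V617F 1, 2 and 3, 3 and 2 without WT 1 and WT 3, and 14 without WT 4.

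Immediate early genes, which respond within minutes to stimulation, had 9 lower and no higher members of 24 (median log2 change -0.55). The count lower was 4, 2 and 1 without V617F 1, 2 and 3, and 7, 2 and 9 without WT 1, WT 3 and WT 4. Junb, an AP-1 subunit, had 182, 128 and 169 CPM in V617F and 287, 547 and 356 CPM in WT, and was the member that passed all 7 refits (log2 change -1.31 ± 0.31, adjusted p = 0.00865). Egr1, a zinc finger factor tied to stem cell quiescence, had 78, 43.9 and 44.6 CPM in V617F and 122, 284 and 170 CPM in WT. Both genes were lowest in WT 1 among the WT libraries and still higher there than in any V617F library. Dusp2, a phosphatase of MAP kinases, and Ier5 and Jund fell by 1.22, 0.78 and 0.91 log2 units in the main fit. The list median was -0.11 against WT 1, -0.92 against WT 3 and -0.69 against WT 4. Of 23 NF-kB targets 7 were lower and 3 higher, with 1 to 10 lower and 0 to 3 higher over the omissions. Of these, Tnfaip3, the feedback inhibitor A20, fell to 26.6 ± 3.66 CPM in V617F, against 51.6 ± 8.5 CPM in WT (SD, n = 3 each; adjusted p = 0.0065), and alone passed all 7 refits.

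Among 37 genes of the TGF-beta and BMP pathway, 6 were higher and 6 lower. Over the omissions 2 to 7 were higher and 0 to 13 lower, the most without WT 4, and none of the lower members passed all 7 refits. Skil (SnoN), a repressor of SMAD signalling, had 77.7, 67.8 and 77.2 CPM in V617F and 23.5, 27.4 and 29 CPM in WT, 2 tight groups that differed by 1.48 ± 0.11 log2 units (adjusted p = 0.00039). The ligand gene Inhba, the activin A subunit, had 0.441, 0.585 and 0.282 CPM in V617F and 2.45, 2.63 and 4.28 CPM in WT, and 4 of the 10 ligand and latent-binding genes tested were lower with none higher. The coreceptor gene Eng (endoglin) had 173, 192 and 188 CPM in V617F and 640, 647 and 208 CPM in WT, so its fall (log2 change -1.43) came from WT 1 and WT 3. Among 36 niche adhesion and chemokine genes 7 were higher and 2 lower; Tjp1, Podxl, Ncam2 and Mmp2 were the 4 higher members that passed all 7 refits. The integrin alpha 4 gene Itga4 had 171, 159 and 207 CPM in V617F and 120, 107 and 124 CPM in WT, while its ligand gene Vcam1 had 0.849, 0.674 and 0.812 CPM in V617F and 2.5, 5.91 and 4.08 CPM in WT. The integrin was higher and the ligand lower without overlap, by 0.61 ± 0.13 and -2.40 ± 0.36 log2 units (adjusted p = 0.0118 and 0.00847).

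The survival gene Bcl2 had 75.5, 67.9 and 84.3 CPM in V617F and 118, 116 and 142 CPM in WT. It fell by 0.72 ± 0.13 on the log2 scale (adjusted p = 0.00865) and was the member of 16 Bcl2 family genes that passed all 7 refits. The unfolded protein response factor Xbp1 averaged 351 ± 63.2 CPM in V617F and 216 ± 18.6 CPM in WT (SD, n = 3 each; log2 change 0.70, adjusted p = 0.0154), 1 of 2 higher members of 25. Of 8 Gimap genes, a family of small GTPases known from lymphocytes, Gimap4, Gimap9 and Gimap3 were higher and none lower, with a list median of 0.66. Gimap4 alone passed all 7 refits, while Gimap9 and Gimap3 each passed in 1 of 6 omissions. Gimap9 had 65.3, 65.2 and 58.8 CPM in V617F and 30.2, 22 and 53.2 CPM in WT 1, 3 and 4. Of 25 p53 targets 2 were higher and Plk2 alone was lower, beside 5.48% higher and 7.94% lower of all tested genes. Over the omissions 0 to 5 p53 targets were higher and 1 to 3 lower. The 25 genes of the Xbp1 list had 0 to 4 higher and 0 to 2 lower over the same omissions. No call was made among 40 cytosolic ribosomal protein genes or 17 Hox genes, although 16 of the 17 Hox genes had a negative log2 change (median -0.58). Without WT 4, 7 ribosomal protein genes were higher and 5 lower, and 5 Hox genes were lower. Glycolysis had 2 lower of 19 genes, oxidative phosphorylation 1 higher of 39, fatty acid synthesis 1 lower of 15 and ribosome biogenesis 2 lower of 30, shares no larger than those of all genes except for glycolysis. These 4 counts were 0 in each single omission except that of WT 4, where they were 7, 13, 2 and 6. In the other direction, up to 12 ribosome biogenesis genes were called higher over the omissions, and 18 of the 30 had a positive log2 change. Up to 3 oxidative phosphorylation genes were called lower, and no glycolysis or fatty acid synthesis gene was called higher.

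Markers of other marrow cells were read in the same libraries. Granulocyte markers summed to 335 to 381 CPM in V617F, against 824, 302 and 301 CPM in WT 1, 3 and 4, and none of 17 passed the test. WT 1 alone was high: S100a8 had 6.21, 7.78 and 9 CPM in V617F and 103, 2.46 and 8.51 CPM in WT. Of 19 monocyte and macrophage markers, 6 were lower and 2 higher, with 4 to 7 lower and 0 to 2 higher over the omissions. Their summed level overlapped between the groups. It was 530, 515 and 486 CPM in V617F 1, 2 and 3 and 593, 531 and 490 CPM in WT 1, 3 and 4. The complement genes C1qa, C1qb and C1qc, which mark marrow macrophages, averaged 0.0902 to 0.236 CPM in V617F and 1.88 to 2.52 CPM in WT, and all 3 passed all 7 refits; the macrophage gene Adgre1 had 0 CPM in each V617F library and 1.01, 0.27 and 0.70 CPM in WT. Cd68 went the other way, at 24.5, 18.8 and 19.1 CPM in V617F and 11.4, 13 and 12.5 CPM in WT. Macrophages of the marrow also carry Vcam1 and engulf red cell precursors; the part of such cells in the lower erythroid and Vcam1 values was not tested. Lymphoid markers had 2 lower and 1 higher of 11, and mast cell and basophil markers 2 lower of 9. Endothelial and stromal markers had 3 lower of 13. Over all tested genes the shares were 7.94% lower and 5.48% higher. None of these called markers passed all 7 refits, and each of these counts fell to 0 in at least 1 omission.

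**Figure D4:**
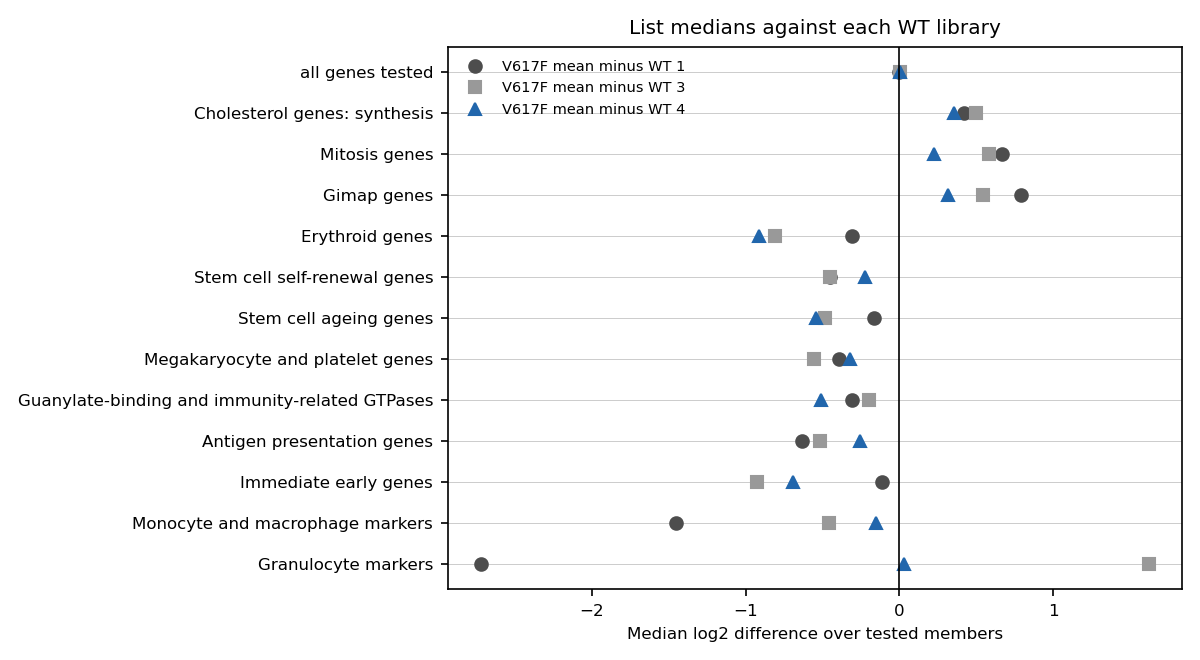
Median log2 difference of the V617F mean from WT 1, WT 3 and WT 4 over the tested members of 12 gene sets and of all genes. Erythroid genes lie at -0.31, -0.81 and -0.91 and cholesterol synthesis genes at 0.42, 0.50 and 0.35, while granulocyte markers lie at -2.72, 1.62 and 0.03.

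The same contrast in CD41-positive HSC (3 V617F and 2 WT libraries of the same protocol, none shared with the CD41-negative libraries, although the numbers in the titles may mark the same animals) called 32 genes higher (0.221%) and 136 lower (0.94%). Of the 62 higher genes that passed all 7 refits in the CD41-negative fraction, 18 were also called higher there, and of the 115 lower genes 49 were also called lower. Same-numbered V617F libraries of both fractions deviated together (r = 0.301, 0.419 and 0.298), while the fit treated all libraries as independent. For same-numbered WT libraries of both fractions r was 0.0429 for WT 3 and 0.0242 for WT 4. The 2 CD41-positive WT libraries deviate from their mean in exactly opposite ways (r = -1), so these values cannot decide whether WT libraries deviated together. The direction was the same for 176 of the 177 genes, and for 67.7% of all tested genes; the exception was 8430426J06Rik, at 2.04 CPM in V617F and 0.0701 CPM in WT in the CD41-negative fraction. Slc17a8 averaged 43.1 CPM in V617F and 4.21 CPM in WT in CD41-positive HSC, Socs2 96 CPM in V617F and 23 CPM in WT, Plk2 1.16 CPM in V617F and 26.1 CPM in WT, and Hba-a1 0.145 CPM in V617F and 17 CPM in WT. These 4 genes were called in both fractions. Nov averaged 2.51 CPM in V617F and 0.266 CPM in WT there and was not called (adjusted p = 0.134). Pim2 averaged 70.2 CPM in V617F and 63.2 CPM in WT there, and Gimap4 6.94 CPM in V617F and 5.66 CPM in WT; neither was called in CD41-positive HSC.

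Whether the V617F effect differed between the fractions was tested directly. No gene passed (0% of 14467; edgeR's quasi-likelihood test, lowest adjusted p 0.566), while 1274 genes (8.81%) had an unadjusted p under 0.05. DESeq2 called 6 genes (Anxa2, Cftr, Lepr, Prtn3, Dglucy and Igf2bp2) and limma-voom none. Igf2bp2 had the smallest unadjusted p among genes with a more negative effect in the CD41-negative fraction: it averaged 3.23 CPM in V617F and 18.2 CPM in WT there, and 10.7 CPM in V617F and 18.6 CPM in WT in CD41-positive HSC (difference of log2 changes -1.68, unadjusted p = 0.000628). Prtn3, a granule protease, averaged 120 ± 16.3 CPM in V617F and 108 ± 8.43 CPM in WT in the CD41-negative fraction and 41.6 CPM in V617F and 77.5 CPM in WT in the CD41-positive fraction (difference 1.06, unadjusted p = 0.000134). For Pim2 the difference was 1.02 (unadjusted p = 0.00152). The other genes with the smallest unadjusted p were Dglucy, Lepr, Anxa2, F8 and 8430426J06Rik with a more positive effect in the CD41-negative fraction, and Adcy3, Rimbp3, A930017M01Rik, Cited4 and Diaph3 with a more negative one. Without CD41-negative WT 4 the test of the difference called 1766 genes, and without any other library none.

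**Figure D5:**
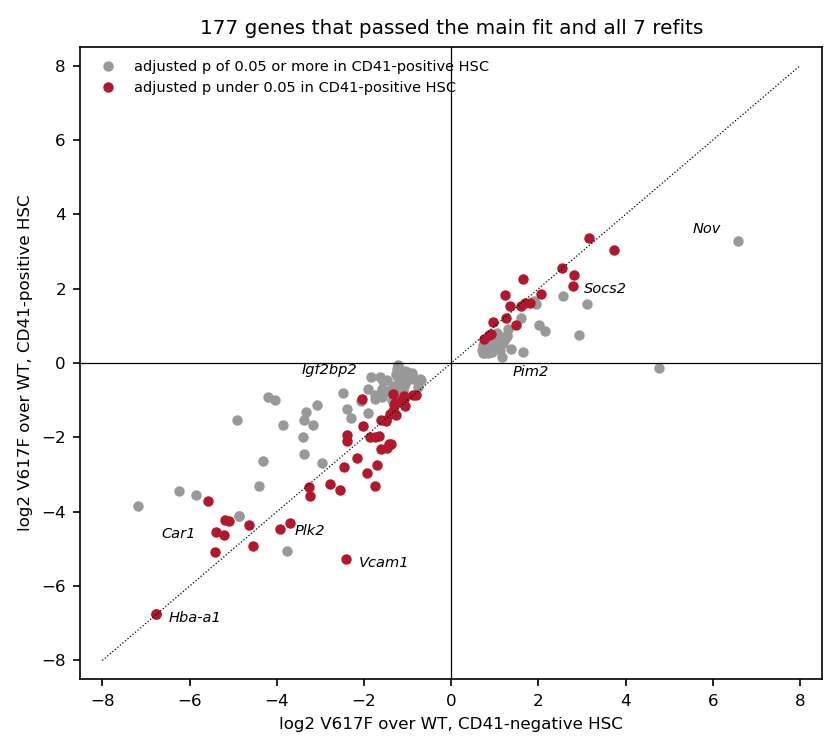
Log2 change of V617F over WT in CD41-positive HSC (y axis) against that in CD41-negative HSC (x axis) for the 177 genes that passed all 7 refits in the CD41-negative fraction; red points were also called in CD41-positive HSC, and the dotted line marks equal changes. Of the points, 176 share their sign; Nov lies far right of the line and Hba-a1 on it.

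Unsplit long-term HSC (LT-HSC) of the series were prepared with SMART-Seq v2 in a separate set of 3 V617F libraries from male and 3 WT libraries from female mice by the labels; genotype and labelled sex cannot be told apart there and the values were only set side by side. V617F libraries were all above WT libraries in 12.4% of 13407 genes and all below in 5.73%. Among the genes that passed all 7 refits, 21 of 62 higher genes (33.9%) were also entirely higher in LT-HSC and 21 of the 100 lower genes tested there (21%) entirely lower. For all genes called in the CD41-negative fraction the shares were 15.9% of 788 higher genes and 10% of 1046 lower genes. Slc17a8 averaged 30.4 CPM in V617F and 0.845 CPM in WT in LT-HSC, and Nov 6.7 CPM in V617F with 0 in every WT library. Tjp1 averaged 25.9 CPM in V617F and 0.72 CPM in WT, and Plk2 4.46 CPM in V617F and 76.5 CPM in WT. Socs2 averaged 193 CPM in V617F and 59.9 CPM in WT, and Car1 0.391 CPM in V617F and 33.5 CPM in WT. In these 6 genes the LT-HSC groups did not overlap, in the direction seen in CD41-negative HSC.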

How the data were processed

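Whole-number read counts per gene were deposited by the authors in 1 table of 24454 genes; STAR 2.5.2a is named in the submitters' processing notes, and the counting step and strand setting are not given in the sources used here. All columns could be matched to a sample by title, with 0 columns left over. The 11 SMART-Seq v4 libraries (CD41-negative and CD41-positive HSC, both genotypes) were fitted together with edgeR 4.0.16 (R 4.3.3): filterByExpr, TMM normalization, a 4-group design and the quasi-likelihood test with Benjamini-Hochberg adjustment at 0.05. The common biological coefficient of variation was 0.18 over 11 libraries and 0.212 over the 6 CD41-negative ones. CPM were scaled by the TMM factors. In counts simulated for this contrast on 14217 genes, 66.7% of 2-fold and 89.9% of 4-fold changes were recovered, and 10 calls (6.06%) were false. The simulated libraries were drawn independently. They held neither the distance of WT 1 and WT 3 from WT 4 nor the shared deviation of same-numbered V617F libraries. These rates may therefore not hold for the real libraries. LT-HSC libraries (SMART-Seq v2) were not fitted.

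Genes named in the text include the 12 largest changes per direction that passed, averaged at least 10 CPM and did not overlap. These 12 leave out predicted or unnamed genes (Gm, Rik and LOC names), pseudogenes and genes on X and Y. Also named were up to 6 called members per list by p and a set of pathway and gate genes. The 6 genes per direction with the smallest p for the difference between fractions were named as well. S100a8, Adgre1, Hbb-bt and Hbb-b2 were chosen after their values were seen. Members, the 35 gene lists and tests were chosen with earlier results of these data known. Detection floors cover counting error only. SDs and standard errors follow the spread between libraries. Same-numbered CD41-negative V617F and WT libraries did not deviate together (r = -0.117 for number 1 and -0.0369 for number 3), and no label ties the numbers to animals, so V617F and WT were not paired. Same-numbered V617F libraries of the CD41-negative and CD41-positive fractions did deviate together (r = 0.301, 0.419 and 0.298), and the 11-library fit treated them as independent. DESeq2 1.42.0, limma 3.58.1 (voom), other normalizations, filters, covariates and single-library omissions were tried as alternatives. Promoters and their coordinates are from RefSeq (GRCm38.p6) by gene symbol or identifier; a gene without an entry has no sequence shown. Some genes that the rule selects are not reported here.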

Additional observations from a re-analysis of the deposited data

Results flagged for a closer look

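Each of the following genes was lower in CD41-negative V617F HSC and had all V617F libraries above all WT libraries in LT-HSC, so the directions were opposite; the difference between these populations was not tested, and LT-HSC were prepared with another protocol and differ in labelled sex between genotypes. Mir6236 had a log2 change of -3.56 in CD41-negative HSC and averaged 1.64 CPM in V617F and 0.803 CPM in WT in LT-HSC. Tmem259 had a log2 change of -2.31 and averaged 19.4 CPM in V617F and 10 CPM in WT LT-HSC. Cited4 had a log2 change of -3.07 and averaged 2.29 CPM in V617F and 0.688 CPM in WT LT-HSC. Zfpm1 had a log2 change of -1.85 and averaged 17.3 CPM in V617F and 9.49 CPM in WT LT-HSC. Dusp2 had a log2 change of -1.22 and averaged 57.7 CPM in V617F and 13.8 CPM in WT LT-HSC. Of these, Cited4 and Zfpm1 passed all 7 refits, while Mir6236 and Tmem259 were high in WT 1 and WT 3 only. Over all 1046 called lower genes tested in LT-HSC, 130 (12.4%) were entirely higher there, against 12.4% of all genes.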

How the results depend on the processing

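The number of called genes was 1941. It was 3380 with DESeq2, 3964 with sample weights in voom, 269 with the 6 CD41-negative libraries only, 145 without WT 1 and WT 3 together and 366 without both V617F libraries labelled male. The replicate block, which the labels do not support as a pairing, gave 3983 calls, and 3527 in the 6-library fit. Single omissions gave 282 to 6021. The count stayed within 1.5 times of the main count with limma-voom, RLE size factors, other filters, labelled sex as a covariate, without X and Y genes, and with the share of Y-linked RNA as a covariate (1834 calls, chosen after seeing the data). The share of higher calls was 40.9% and ranged from 22.4% to 54% over the alternatives. For the difference between fractions, the count of 0 became 6 with DESeq2 and ranged from 0 to 1766 over omissions; limma-voom, RLE size factors, no filter, the replicate block and both sex covariates gave 0.

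Across 126 genes and 20 alternatives, 2041 results kept direction and side of the threshold, 454 lost and 5 gained the call, and 5 turned direction, all in genes that were not called: without WT 1 and WT 3 the log2 change was -0.096 for Ly6a, -0.055 for Slamf1 and 0.42 for Tal1, and over single omissions it ranged from -0.023 to 0.35 for Ly6a and from -0.26 to 0.25 for Tal1. The cause of these shifts was not tested. With 3 libraries a group, 33 of the 115 lower genes that passed all 7 refits averaged under 1 CPM in V617F, where the counts limit precision.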
